A study of Mus musculus with 9 samples.

Results

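Whole eyes of A/J and C57BL/6J mice were compared by RNA sequencing across all genes, with 3 libraries of each strain, which are 6 of the 9 libraries in the series. The 6 were chosen by their strain label alone, so that the spread against which each difference was set is that of the strains compared, and the 3 BALB/c libraries of the series were not used. All were wild-type females of 4 weeks. Each library was made from poly(A) RNA of a pool of 5 mice and copied into cDNA from random primers. Whether each of a strain's 3 libraries had its own pool of mice is not stated, so p-values here reflect how far libraries differ, and that may be technical. The stated design sets side by side strains whose retinas degenerate at different rates. Libraries are named A/J 1 to 3 and C57BL/6J 1 to 3, and a change is always A/J minus C57BL/6J.

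A/J is an albino inbred strain, through a variant of the tyrosinase gene Tyr, and C57BL/6J is a pigmented inbred strain that serves as the standard reference mouse. The whole eye holds the neural retina with its rods and cones, the pigment epithelium behind it, the lens, the cornea and conjunctiva in front, and the drainage tissues of the aqueous humour. An mRNA level in such a sample is a sum over all of these tissues. In bulk tissue, fewer cells of a type and less RNA per cell cannot be told apart.

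Expression is given in RPKM, a read number scaled to transcript length and to library size. The depth of the libraries is unknown, and a gene listed at or near 0 can be a failed estimate. The only build named for the values is mm9, and whether A/J reads were counted as fully as C57BL/6J reads was not tested. Of 13089 genes listed, 12791 reached 1 RPKM in at least 3 of the 6 libraries and were tested with limma on log2(scaled RPKM + 0.5). A gene was called at a Benjamini-Hochberg adjusted p under 0.05. The fitted log2 changes understate the changes of low genes and, for genes near 0, depend on the 0.5 that was added.

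Several libraries stood apart from others of their strain. A first principal component with 64.3% of the variance placed A/J 1 at -37.8, A/J 2 at -46.0 and A/J 3 at 9.8, and it placed C57BL/6J 3 at 62.5, beyond the -1.6 and 13.1 of C57BL/6J 1 and 2. Transcripts rich in GC had lower values in libraries A/J 1 and A/J 2 (Spearman correlation across genes of the library's deviation with GC content -0.60 and -0.69), whereas it was 0.56 in A/J 3 and -0.10, 0.43 and 0.47 in the C57BL/6J libraries. The log2 change between strains itself followed GC content, with a Spearman correlation of -0.54 across genes. Lens crystallins took 42.2% to 45.1% of the summed RPKM across A/J against 37.1%, 43.9% and 29.6% in C57BL/6J 1, 2 and 3. The myelin gene Mbp was at 433, 125 and 138 RPKM across A/J against 86.7, 146 and 20.8 in C57BL/6J, and haemoglobin Hba-a1 was listed above 0 in C57BL/6J 3 alone. The part of these differences between libraries in the results was not tested beyond the fits that left out libraries or corrected for GC content. Of the defining markers of rods, cones, bipolar cells, ganglion cells, Mueller glia, pigment epithelium, melanocytes, lens and cornea, those listed in the data were detected in all 6 libraries, from 1.21 RPKM for Pou4f2 to 40795 for Cryaa. Those of eye muscle (Acta1, 205 to 369 RPKM) and of lacrimal gland were detected in all as well. The lacrimal markers differed widely in level, with Aqp5 at 318 to 546 RPKM and Ltf at 1.12 to 4.94 RPKM.

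Alleles known to separate the strains served to check the labels. H2-Ea, a class II chain whose promoter is deleted in C57BL/6, was at 0.82, 0.8 and 1.35 RPKM across A/J and listed at 0 in each C57BL/6J library. Dysf, which carries an insertion in A/J, was at 0.32, 0.44 and 0.54 against 0.88, 1.12 and 1.64 RPKM. Both were too low to enter the test, and both followed the labels without overlap between the strains. Nnt, the mitochondrial transhydrogenase that is deleted in part in C57BL/6J, was at 9.53, 10.21 and 8.05 against 5.12, 4.2 and 3.96 RPKM (log2 change 1.09, adjusted p = 0.063). It was not called, although the libraries did not overlap. Tyr was at 20.3, 20.9 and 15.4 RPKM across A/J against 23.01, 22.97 and 15 across C57BL/6J (log2 change 0.02, adjusted p = 0.97), and its libraries overlapped between the strains. The deposited values are levels and do not show which variant of Tyr a library carried, so this overlap does not bear on the labels.

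Of the 12791 genes, 138 (1.08%) were called, 50 (0.391%) higher and 88 (0.688%) lower in A/J. Among them 133 (1.04%) changed by at least 1 on the log2 scale, 49 up and 84 down. At an unadjusted p under 0.05 there were 1233 genes. After scaling, on which overlap is judged throughout, the libraries of the strains did not overlap for any of the 138 called genes, nor for 2094 (16.4%) of all genes tested. In fits that left out 1 library at a time, 47 of the 138 calls were kept each time, and the number of calls ranged from 49 without A/J 1 to 157 without A/J 3. It was 65 without A/J 2, 69 without C57BL/6J 1 and 56 without C57BL/6J 2. With both A/J 1 and A/J 2 left out, so that 1 A/J library remained and was assumed to vary like the C57BL/6J libraries, 15 genes were called. After a correction of each library for GC content 205 genes were called, 128 of the 138 among them. All 138 kept their direction in every other fit that tested them.

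**Figure D1:**
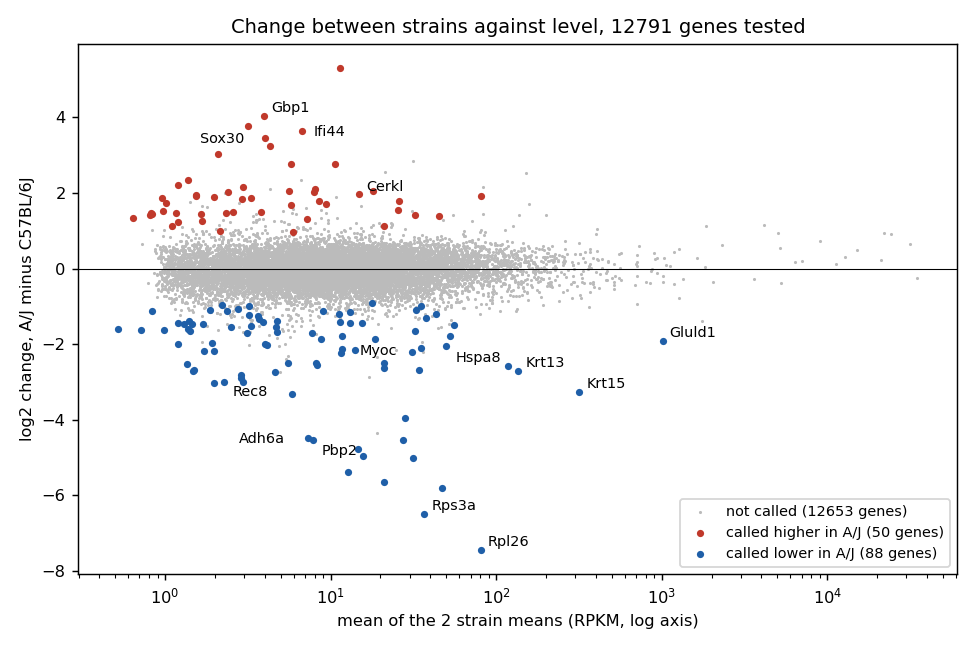
Log2 change (A/J minus C57BL/6J) of each of the 12791 genes tested against the mean of both strains in RPKM on a log axis. The 50 genes called higher in A/J (red) and the 88 called lower (blue) are drawn over the genes that were not called (grey), some of which have changes as large, and the lowest points, Rpl26 and Rps3a, are ribosomal protein genes.

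By the naming rule, which leaves out genes that share sequence and clone names, the largest rises in A/J were those of the interferon-induced genes Gbp1 (now Gbp2b), H28 (now Ifi44l) and Ifi44, followed by Sox30, Rtkn2, Otor, Ins2, Oas2, Car6, Itga4, Wdfy1 and Cerkl. Sox30, a transcription factor of the Sox family known from the male germ line, was at 7.56, 8.34 and 7.19 RPKM across A/J against 0.18, 0.28 and 0.41 across C57BL/6J (log2 change 3.46, SE 0.17, adjusted p = 0.00027). Rtkn2, a gene of the rhotekin family, was at 8.31, 9.39 and 6.77 against 0.51, 0.51 and 0.34 RPKM (log2 change 3.25, SE 0.20). In both genes the lowest A/J library was more than 10 times above the highest C57BL/6J library. Otor, which encodes otoraplin, a secreted protein known from the cochlea, was at 20.4, 24.4 and 12 against 2.5, 2.6 and 2.23 RPKM (log2 change 2.77). Ins2, an insulin gene, was at 9.25, 12.4 and 9.2 against 1.33, 1.01 and 1.25 RPKM (log2 change 2.76). A/J 2 was the highest library for all 4 genes, and the libraries of the strains did not overlap. Wdfy1, a FYVE-domain protein of endosomes, rose to 12.8 ± 1.52 RPKM in A/J, from 3.03 ± 0.416 in C57BL/6J (SD, n = 3 libraries; log2 change 2.02, adjusted p = 0.0031). The calls of these 5 genes were kept in each omission of 1 library and after GC correction.

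Car6, a secreted carbonic anhydrase of saliva and tears, was at 13.9, 13.7 and 11.98 RPKM across A/J against 3.74, 2.86 and 2.22 across C57BL/6J (log2 change 2.11, adjusted p = 0.0080). Itga4, the integrin alpha 4 chain of leukocytes, was at 9.11, 11.5 and 6.95 against 2.23, 1.96 and 1.75 RPKM (log2 change 2.04, adjusted p = 0.0095). Neither gene overlapped between strains, but both calls were lost once A/J 1 or C57BL/6J 2 was left out, and that of Car6 also without A/J 2, with adjusted p up to 0.064 for Car6 and 0.07 for Itga4.

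**Figure D2:**
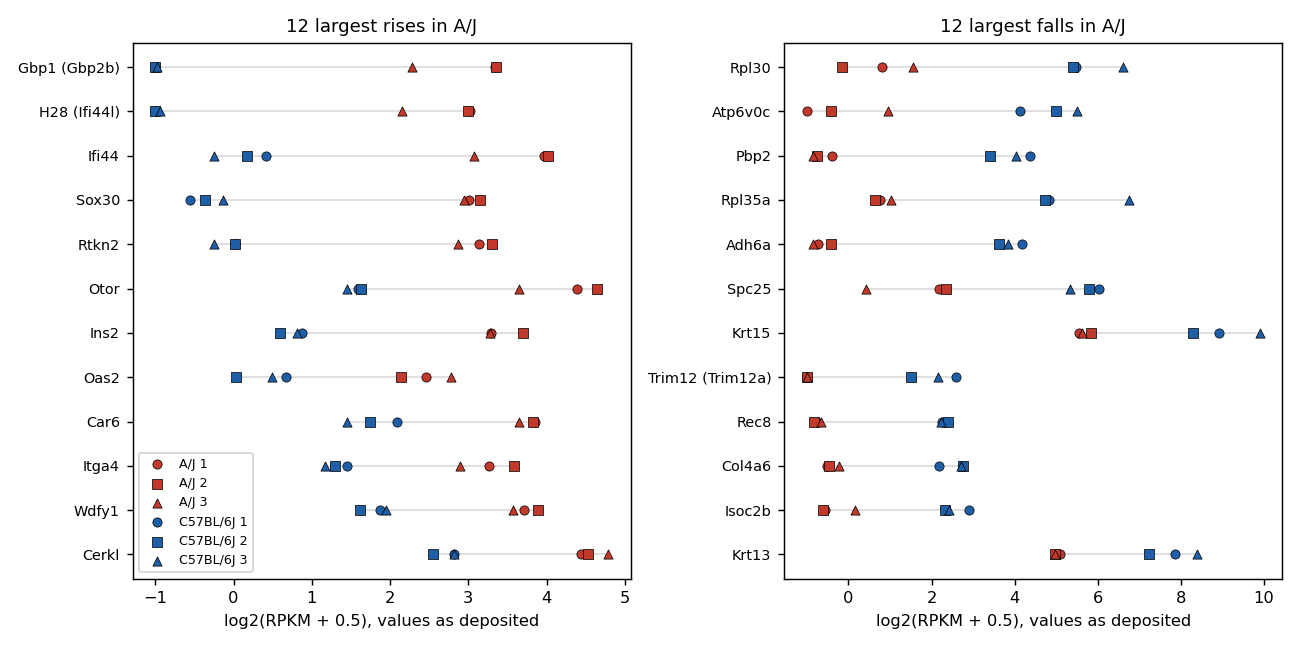
Level of the 12 largest rises (left) and 12 largest falls (right) that the naming rule gave, as log2(RPKM + 0.5) of the deposited values. Each symbol is 1 library, red for A/J and blue for C57BL/6J, and names in brackets are current symbols. In each row the red and blue symbols do not overlap, and Trim12 was listed at 0 in all 3 A/J libraries.

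The largest falls by the same rule were those of Rpl30, Atp6v0c, Pbp2, Rpl35a, Adh6a, Spc25, Krt15, Trim12 (now Trim12a), Rec8, Col4a6, Isoc2b and Krt13. Pbp2, a phosphatidylethanolamine-binding protein, was at 0.26, 0.09 and 0.05 RPKM across A/J against 20.25, 10.15 and 15.82 across C57BL/6J (log2 change -4.55, SE 0.27, adjusted p = 0.00062). Adh6a, an alcohol dehydrogenase, was at 0.1, 0.25 and 0.05 against 17.5, 11.9 and 13.8 RPKM (log2 change -4.49, SE 0.22, adjusted p = 0.00027). These genes were near 0 in all A/J libraries and above 10 RPKM in all C57BL/6J libraries, and both calls were kept in every fit, including that with 1 A/J library. Trim12, a tripartite-motif gene, was listed at 0 in all A/J libraries and at 5.51, 2.36 and 3.95 RPKM in C57BL/6J (adjusted p = 0.0038). It shared 16.0% of its 31-base sequences with other genes. Rec8, a cohesin subunit of meiosis, was at 0.09, 0.06 and 0.13 against 4.29, 4.77 and 4.21 RPKM (log2 change -3.0, adjusted p = 0.00053). Isoc2b, an isochorismatase-domain protein, was at 0.32 ± 0.26 RPKM in A/J against 5.46 ± 1.36 in C57BL/6J (log2 change -2.82, adjusted p = 0.0059).

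Col4a6, which encodes the alpha 6 chain of basement membrane collagen IV, was at 0.2, 0.22 and 0.36 RPKM across A/J against 4.06, 6.27 and 6.06 across C57BL/6J (log2 change -2.89, adjusted p = 0.0015). Col4a5, the chain it assembles with and its neighbour on the X chromosome, was at 13.9, 12.1 and 16.6 against 10.99, 13.3 and 25.2 RPKM and overlapped (log2 change -0.02). Spc25, a kinetochore protein of dividing cells, was at 4.03, 4.56 and 0.85 against 65.2, 54.9 and 39.7 RPKM (log2 change -3.97, adjusted p = 0.019). The call of Spc25 did not hold once A/J 1, C57BL/6J 1 or C57BL/6J 2 was left out (largest adjusted p 0.11), and the calls of Col4a6, Rec8, Isoc2b and Trim12 were kept in each omission.

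Interferons are secreted alarm signals that act through receptors and transcription factors of the STAT and IRF families, and their target genes encode sensors and effectors against viruses. Of 67 listed interferon-induced genes, 56 were tested, and 11 rose in A/J and none fell, against 0.391% and 0.688% of all genes. The list's median log2 change was 0.57 (all genes -0.01), 48 of 56 were above 0, and 29 stood higher in A/J without overlap between libraries while 2 stood lower, against 8.6% and 7.77% of all genes tested. The summed level of the list overlapped between strains, at 532 to 600 RPKM across A/J against 331 to 657 in C57BL/6J. The median was between 0.31 and 0.83 in all other fits. The number of members called ranged from 3 (without A/J 1 or without C57BL/6J 2) to 13 over the omissions of 1 library. It was 2 without both A/J 1 and A/J 2, 7 for values as deposited, 3 among genes of at least 5 RPKM and 15 after GC correction.

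The called effectors rose by unequal amounts. Gbp1, which encodes a guanylate-binding GTPase, had 9.6, 9.68 and 4.34 RPKM across A/J and was listed at 0, 0 and 0.01 across C57BL/6J (log2 change 4.04, adjusted p = 0.0022). H28, an interferon-induced protein related to Ifi44, was at 7.62, 7.46 and 3.96 against 0, 0 and 0.02 RPKM (log2 change 3.76, adjusted p = 0.0014). Ifi44 was at 15.1, 15.7 and 7.9 against 0.83, 0.63 and 0.34 RPKM (log2 change 3.65, adjusted p = 0.0040). All 3 were below 1 RPKM in each C57BL/6J library and about 2 times lower in A/J 3 than in A/J 1 and 2, and their calls were kept in each omission of 1 library. With 0.1 instead of 0.5 added before the log2, the change of Gbp1 was 6.25 and with 1 it was 3.13, since its size rests on the added constant.

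The oligoadenylate synthetases, which make the messenger that activates RNase L, gave 3 of the 11. Oas2 was at 4.98, 3.9 and 6.36 RPKM across A/J against 1.09, 0.52 and 0.9 across C57BL/6J (log2 change 2.15, adjusted p = 0.0084). Oas3 was at 2, 1.52 and 2.21 against 0.44, 0.29 and 0.52 RPKM (log2 change 1.47, adjusted p = 0.013), and Oas1a, which shares 68.8% of its sequence with other genes, at 5.96, 4.32 and 3.9 against 1.59, 0.58 and 1.11 RPKM (log2 change 1.84, adjusted p = 0.035). A/J 3 was the highest A/J library for Oas2 and Oas3 and the lowest for Oas1a. Isg15, a ubiquitin-like modifier, was at 38.6, 27.6 and 52.6 against 11.5, 9.07 and 15.1 RPKM (log2 change 1.78, adjusted p = 0.029). Zbp1, a sensor of Z-form nucleic acid, was at 3.35, 3.38 and 4.01 against 1.29, 0.71 and 1.28 RPKM (log2 change 1.47, adjusted p = 0.017). The remaining called members were Rtp4 (log2 change 1.78), Gbp4 (1.44) and Ifi27 (1.13), whose deposited description is that of Ifi27l2a. None of these 8 calls was kept in every omission: each was lost without A/J 1 and also without C57BL/6J 2, with adjusted p up to 0.064 for Oas2 and 0.25 for Rtp4.

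Irf7, a factor that amplifies interferon production, was not called, at 28.5, 20.2 and 38.1 RPKM across A/J against 13.9, 12.8 and 21.8 across C57BL/6J (log2 change 0.93, adjusted p = 0.30), with overlap in the deposited values and none after scaling. Usp18, which removes ISG15 from proteins, was at 7.43, 6.55 and 6.13 against 3.71, 2.91 and 3.63 RPKM (log2 change 0.98, adjusted p = 0.053), and Trim30 (now Trim30a) had a log2 change of 1.73 (adjusted p = 0.059). After GC correction Irf7, Usp18 and Trim30 passed, with adjusted p of 0.035, 0.026 and 0.0089. The 2 members that stood lower in A/J without overlap were Ifit3 (8.67, 7.77 and 5.21 against 15.1, 9.34 and 12.1 RPKM), which shares 61.8% of its sequence with other genes, and Isg20 (0.93, 0.92 and 0.9 against 1.96, 2.17 and 2.18 RPKM). Neither was called (adjusted p = 0.52 and 0.084).

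The start regions of the called interferon-induced genes are shown because interferon acts on such genes through the interferon-stimulated response element, for which the letters GAAA, any 2 bases and GAAA again were searched on both strands. Sequences are from RefSeq (GRCm38.p6, another build than that of the deposited values), run 5′ to 3′ on the gene's strand from 250 bases before to 50 bases after the start, and have matches in capitals. Of the 11 genes, 6 had an entry, and 4 of these held the letters. They were Gbp1 (chr3:142594597-142594896, plus strand, match on the reverse strand), Isg15 (chr4:156200769-156201068, minus strand, 3 overlapping matches), Oas1a (chr5:120907476-120907775, minus strand, 2 overlapping matches) and Oas3 (chr5:120777610-120777909, minus strand). Ifi44 and H28 held none in this window.
Gbp1: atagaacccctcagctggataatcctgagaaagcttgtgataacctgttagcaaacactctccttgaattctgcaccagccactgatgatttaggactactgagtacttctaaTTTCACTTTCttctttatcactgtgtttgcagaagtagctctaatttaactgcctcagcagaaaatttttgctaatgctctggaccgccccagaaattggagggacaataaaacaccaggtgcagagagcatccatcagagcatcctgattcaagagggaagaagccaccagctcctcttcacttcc
Isg15: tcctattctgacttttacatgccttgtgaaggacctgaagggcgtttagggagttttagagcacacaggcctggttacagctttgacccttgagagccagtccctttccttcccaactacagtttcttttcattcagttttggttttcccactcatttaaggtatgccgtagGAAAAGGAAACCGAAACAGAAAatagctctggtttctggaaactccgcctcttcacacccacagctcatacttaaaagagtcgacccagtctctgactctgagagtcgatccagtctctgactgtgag
Oas1a: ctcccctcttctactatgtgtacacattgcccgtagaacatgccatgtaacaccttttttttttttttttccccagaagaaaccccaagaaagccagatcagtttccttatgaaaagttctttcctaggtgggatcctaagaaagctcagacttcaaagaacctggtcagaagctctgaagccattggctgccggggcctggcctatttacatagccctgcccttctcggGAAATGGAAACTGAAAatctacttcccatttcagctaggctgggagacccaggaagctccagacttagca
Oas3: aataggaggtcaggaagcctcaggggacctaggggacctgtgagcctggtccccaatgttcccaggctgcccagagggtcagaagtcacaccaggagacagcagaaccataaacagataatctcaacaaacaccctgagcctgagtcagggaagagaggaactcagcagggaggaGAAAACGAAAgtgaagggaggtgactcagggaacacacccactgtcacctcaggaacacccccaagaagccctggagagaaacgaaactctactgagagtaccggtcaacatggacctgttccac
These letters stood in 3.44% of all 32851 RefSeq start regions and in 3.58% of those of genes tested. In the interferon list they were found in 15 of 34 genes (44.1%) that were not called and had an entry.

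The genes of the major histocompatibility complex, which present peptides to T cells, changed in both directions. Of the class II molecules, carried by antigen-presenting cells, 3 chains were called lower. H2-Ab1, a class II beta chain, was at 3.13, 3.86 and 4.13 RPKM across A/J against 18.9, 15.4 and 24.6 across C57BL/6J (log2 change -2.14, SE 0.19, adjusted p = 0.0035). Its partner H2-Aa was at 6.54, 6.6 and 6.1 against 18.7, 17.5 and 23.04 RPKM (log2 change -1.43, adjusted p = 0.0067), and the beta chain H2-Eb1 at 2.77, 4.41 and 2.33 against 12.4, 10.8 and 13.3 RPKM (log2 change -1.72, adjusted p = 0.021). All 3 were at least 2 times lower in every A/J library than in any C57BL/6J library. How fully the A/J reads of these chains were counted was not tested. The call of H2-Ab1 was kept in each omission, that of H2-Aa was lost once A/J 1 or C57BL/6J 2 was left out (largest adjusted p 0.065), and that of H2-Eb1 without A/J 1 or any C57BL/6J library (up to 0.14). Cd74, the invariant chain that guides class II molecules, was at 19.7, 21.7 and 19.3 against 58.1, 40.0 and 119 RPKM and was not called (log2 change -1.55, adjusted p = 0.12). The other class II genes differed among themselves. H2-DMb1, a chain of the peptide loader of class II, was at 0.65, 1.02 and 0.56 against 3.08, 2.51 and 2.23 RPKM, shares 31.4% of its sequence with other genes and was not called (log2 change -1.25, adjusted p = 0.062), and its partner H2-DMa overlapped (log2 change -0.04). H2-Ea, which was not tested, stood the other way, listed at 0 in each C57BL/6J library and above 0 in each A/J library. The markers of microglia and macrophages, which can carry class II, were not called (0 of 25 genes, median -0.04), against 1.08% of all genes. At that share a list of this size can hold no call. The summed level of these markers was 239 to 318 RPKM across A/J against 286 to 374 in C57BL/6J. Whether cells that carry class II differed in number was not tested.

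The start regions of 2 class II genes are shown because the Y box, with the core GATTGG, is part of the class II promoter. H2-Aa (chr17:34287774-34288073, minus strand) held 1 match and H2-Eb1 (chr17:34305617-34305916, plus strand) 2, 1 on each strand.
H2-Aa: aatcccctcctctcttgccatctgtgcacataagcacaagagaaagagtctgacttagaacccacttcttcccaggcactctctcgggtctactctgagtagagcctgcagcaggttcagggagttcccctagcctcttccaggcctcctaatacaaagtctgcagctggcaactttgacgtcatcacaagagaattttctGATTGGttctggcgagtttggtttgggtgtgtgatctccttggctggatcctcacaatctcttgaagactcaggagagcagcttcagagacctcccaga
H2-Eb1: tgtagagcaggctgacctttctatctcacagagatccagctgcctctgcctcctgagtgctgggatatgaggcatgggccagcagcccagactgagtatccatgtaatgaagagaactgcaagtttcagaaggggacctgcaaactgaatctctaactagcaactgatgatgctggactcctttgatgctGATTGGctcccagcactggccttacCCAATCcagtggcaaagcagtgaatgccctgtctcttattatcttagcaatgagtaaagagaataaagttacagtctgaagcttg
The same letters were found in 16.1% of all start regions, and in 23.04% of those of genes tested.

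Among class I genes, 4 rose in A/J, all from the Q and T groups. H2-Q2 was at 1.93, 2.43 and 2.4 RPKM across A/J against 0, 0.21 and 0.18 across C57BL/6J (log2 change 2.20, adjusted p = 0.0038), and H2-Q10 at 2.15, 1.54 and 4.2 against 0.05, 0.05 and 0.22 RPKM (log2 change 2.36, adjusted p = 0.019). H2-T10 was at 2.67 ± 0.188 RPKM in A/J against 0.383 ± 0.214 (log2 change 1.96, adjusted p = 0.0072) and H2-Q6 at 4.12 ± 2.01 against 0.66 ± 0.252 (log2 change 2.02, adjusted p = 0.037). These 4 share 30.3% to 51.8% of their sequence with other genes, so the counting of reads could split them between near copies, and which of these genes differs is uncertain. The call of H2-Q2 was kept in each omission, and the calls of the other 3 were all lost without A/J 1 (largest adjusted p 0.15). The classical class I genes were not called: H2-K1 was at 48.0, 53.6 and 52.3 against 74.5, 50.3 and 74.9 RPKM (log2 change -0.24), and H2-D1 at 76.4, 83.5 and 76.0 against 101, 88.9 and 105 RPKM (log2 change -0.21). B2m, their shared light chain, overlapped between strains (log2 change 0.08). In all, 4 of 24 tested genes of this list rose and 3 fell, against 0.391% and 0.688% of all genes, and its median was -0.18. Without both A/J 1 and A/J 2 none of the 7 was called.

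**Figure D3:**
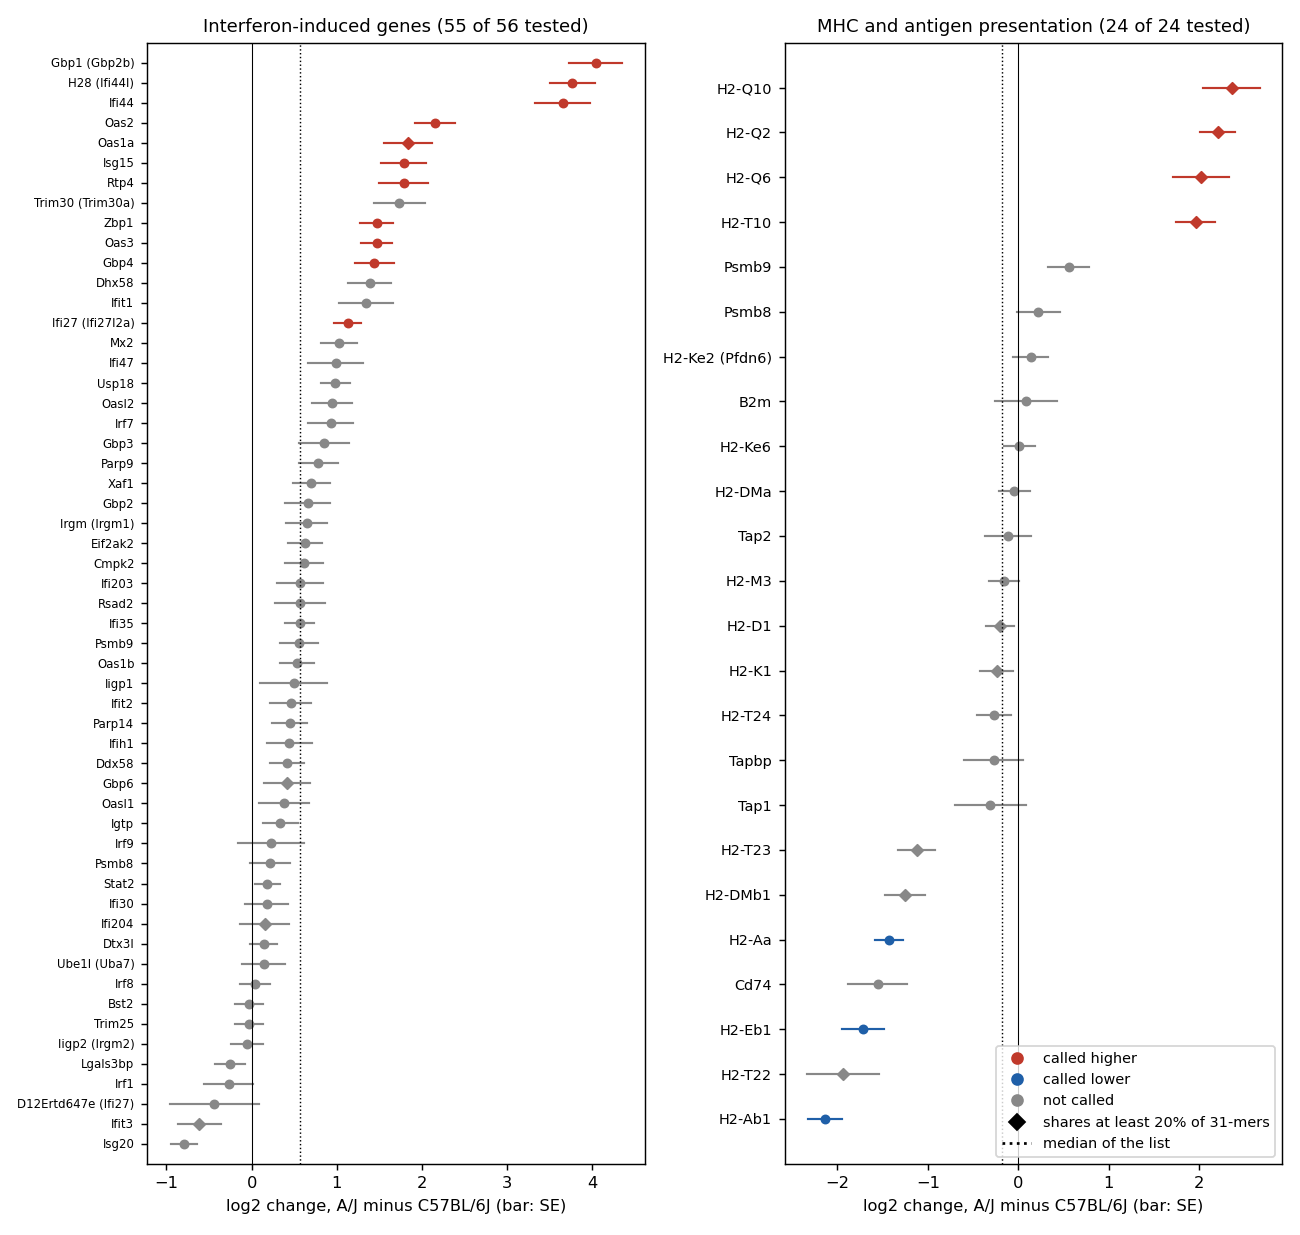
Log2 change (A/J minus C57BL/6J) with its standard error for 55 of the 56 interferon-induced genes tested (left) and the 24 genes of MHC and antigen presentation (right). Red and blue mark genes called higher and lower in A/J, diamonds mark genes that share at least 20% of their 31-base sequences, and the dotted line is the list's median (0.57 and -0.18).

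In the surface epithelium of cornea and conjunctiva, 4 of 23 genes fell and none rose, against 0.688% and 0.391% of all genes, while the list's median was -0.11, with 0.05 after GC correction and 0.02 without C57BL/6J 3. Over the omissions of 1 library 2 to 4 members were called lower, and none without both A/J 1 and A/J 2. The 4 were keratins, the intermediate filament proteins of epithelial cells. Krt15, of basal cells, was at 46.2, 56.3 and 48.6 RPKM across A/J against 484, 311 and 954 across C57BL/6J (log2 change -3.26, SE 0.34, adjusted p = 0.0067). Krt13 and Krt4 form a pair in stratified epithelia without cornified layer. Krt13 was at 33.7, 30.9 and 30.99 against 231, 151 and 336 RPKM (log2 change -2.70, adjusted p = 0.0045), and Krt4 at 9.01, 8.87 and 5.39 against 56.2, 32.1 and 94.1 RPKM (log2 change -2.68, adjusted p = 0.020). Krt7, of simple and glandular epithelia, was at 3.62, 5.17 and 5.98 against 29.5, 17.2 and 64.5 RPKM (log2 change -2.50, adjusted p = 0.045). For all 4 keratins the C57BL/6J libraries stood in the same order, with C57BL/6J 2 lowest and C57BL/6J 3 highest.

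The summed level of the list overlapped, at 5643 to 6959 RPKM across A/J against 5103 to 8117 in C57BL/6J. The corneal keratin Krt12 was at 2935, 3015 and 2227 RPKM across A/J against 2425, 1632 and 1727 in C57BL/6J and was not called (log2 change 0.62, adjusted p = 0.48). Krt5, the basal keratin of all stratified epithelia, overlapped (879, 772 and 945 against 1018, 808 and 1232 RPKM, log2 change -0.11), as did its partner Krt14 (log2 change -0.21). Krt19 was lower without overlap but not called (25.0, 22.7 and 23.2 against 45.1, 35.5 and 78.6 RPKM, adjusted p = 0.23). The calls of Krt15 and Krt13 were kept in each omission. That of Krt4 was lost once A/J 1, A/J 2 or C57BL/6J 1 was left out (largest adjusted p 0.091), and that of Krt7 without any A/J library or C57BL/6J 1 (up to 0.23).

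**Figure D4:**
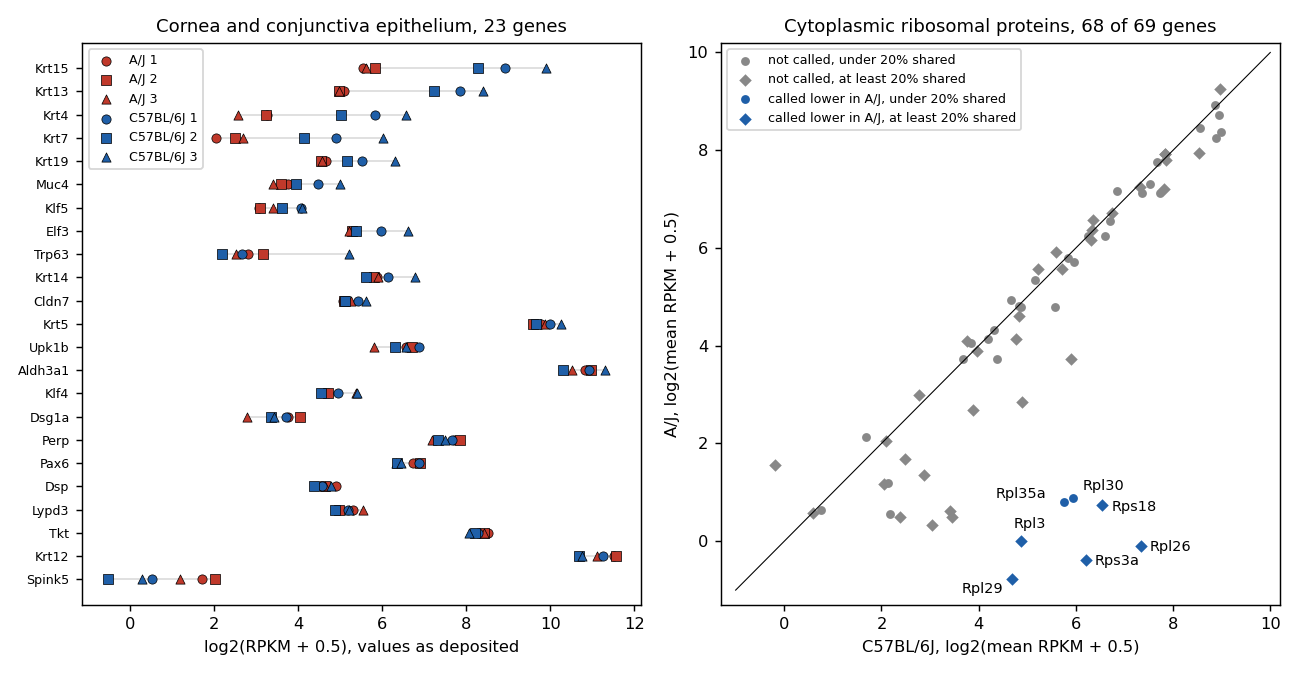
Left, level of the 23 tested genes of cornea and conjunctiva epithelium in each library, as log2(RPKM + 0.5), with the genes in the order of their fitted change. Right, strain means of 68 of the 69 tested cytoplasmic ribosomal protein genes as log2(mean RPKM + 0.5), with the line of equal values and diamonds for genes that share at least 20% of their 31-base sequences. The 7 called genes shown lie far below the line, at or under a mean of 1.36 RPKM in A/J.

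Photoreceptors turn light into a fall of cyclic GMP through a visual pigment, transducin and phosphodiesterase, and rods and cones use separate members of each family. Of 26 rod genes none was called, against 1.08% of all genes. Their median log2 change was -0.27, and it lay between -0.39 and -0.17 in all other fits. Of the 26, 8 were lower and 1 higher in A/J without overlap, against 7.77% and 8.6% of all genes. The higher one was Sag, the arrestin of rods, at 2382, 2903 and 2092 RPKM across A/J against 1296, 1232 and 1134 in C57BL/6J (log2 change 1.11, adjusted p = 0.069). The rod list summed to 18185 to 18270 RPKM across A/J and to 19952 to 23758 in C57BL/6J.

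Of 14 cone genes 1 fell and none rose, against 0.688% and 0.391% of all genes. Their median log2 change was -0.27, 10 were below 0, and 5 stood lower and none higher in A/J without overlap, against 7.77% and 8.6% of all genes. The called gene, Pde6c, which encodes the cone's catalytic phosphodiesterase subunit, was measured at 4.47, 3.74 and 4.89 RPKM across A/J against 19.8, 17.7 and 33.5 across C57BL/6J (log2 change -2.16, SE 0.23, adjusted p = 0.0067). The call did not hold without A/J 1 (adjusted p = 0.053). The cone list summed to 622 to 638 RPKM across A/J and to 740 to 887 in C57BL/6J. No other cone gene was called: the short-wave opsin Opn1sw was at 141, 123 and 91.8 against 134, 120 and 121 RPKM (log2 change 0.02), and the medium-wave opsin Opn1mw at 53.7, 55.1 and 55.3 against 79.5, 56.9 and 52.5 RPKM (log2 change -0.07). Pde6h, the inhibitory subunit of the same enzyme, was not called (77.6, 82.8 and 50.0 against 157, 113 and 96.7 RPKM, log2 change -0.69, adjusted p = 0.52). Cone arrestin Arr3 and the channel subunit Cnga3 were lower in each A/J library without being called (log2 changes -0.57 and -0.69).

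Among inner retinal neurons, Prkca, the protein kinase C of rod bipolar cells, was at 6.14, 6.11 and 6.33 RPKM across A/J against 15.4, 16.4 and 16.9 across C57BL/6J (log2 change -1.21, SE 0.15, adjusted p = 0.013). It was the 1 gene called of 15 bipolar genes, whose median was 0.16, against 1.08% of all genes. The libraries of each strain lay within 2 RPKM of each other, yet the call did not hold once A/J 1, A/J 2, C57BL/6J 1 or C57BL/6J 2 was left out (largest adjusted p 0.12). Nefm, the medium neurofilament chain of axons, was at 10.9, 12.3 and 11.8 against 22.9, 22.7 and 26.6 RPKM (log2 change -0.90, adjusted p = 0.041). The light chain Nefl was at 56.2, 54.5 and 58.0 against 117, 121 and 114 RPKM and narrowly missed the threshold (log2 change -0.94, adjusted p = 0.051), and the heavy chain Nefh was at 11.4 ± 0.712 against 14.2 ± 1.48 RPKM (log2 change -0.19). The call of Nefm was lost in each omission of 1 library (largest adjusted p 0.32) and after GC correction (0.30), where Nefl passed (0.023). Of the 25 genes of amacrine, horizontal and ganglion cells, Nefm was the 1 called. Cck, a neuropeptide found in amacrine cells, was at 7.19 ± 1.26 RPKM in A/J against 29.9 ± 4.62 in C57BL/6J (log2 change -1.88, adjusted p = 0.0042) and kept its call in each omission.

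In the pigment epithelium and visual cycle list, 1 of 17 genes rose and none fell, against 0.391% and 0.688% of all genes. The list's median was 0.02, with 4 members higher and 2 lower in A/J without overlap, against 8.6% and 7.77%. The gene that rose was Cerkl, a ceramide kinase-like gene of the retina in which mutations cause retinal degeneration in people, at 21.2, 22.5 and 27.04 RPKM across A/J against 6.51, 5.32 and 6.54 across C57BL/6J (log2 change 1.97, SE 0.17, adjusted p = 0.0030). Its call was kept in each omission. Rpe65, the isomerase of the visual cycle, was at 229, 250 and 117 against 96.5, 81.7 and 56.1 RPKM without overlap and was not called (log2 change 1.41, adjusted p = 0.24). Of 19 melanin and melanocyte genes (median 0.09) 1 rose, against the same 0.391%: Mc1r, the melanocortin receptor that sets the pigment type, was at 2.54, 2.87 and 3.41 against 1.17, 1.26 and 1.54 RPKM (log2 change 1.00, adjusted p = 0.045), a call lost in each omission (largest adjusted p 0.22). Myo7a, the myosin that moves melanosomes and phagosomes in the pigment epithelium, was at 1.86, 1.42 and 2.2 against 4.71, 5.32 and 6.4 RPKM (log2 change -1.27, adjusted p = 0.030). That call was kept without A/J 3 and lost in the other omissions (up to 0.17).

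The 16 crystallins, the packed proteins of the lens, had a median log2 change of 0.52, with 14 above 0. Of the 16, 3 were higher in A/J without overlap, against 8.6% of all genes, and none was called, against 1.08%. Crybb2, the highest over both strains and 1 of the 2 below 0, was at 28319, 27147 and 37547 RPKM across A/J against 38742, 37536 and 41408 across C57BL/6J (log2 change -0.24). Cryaa, the alpha A chain, was at 37979, 32009 and 40795 against 26762, 33118 and 18391 RPKM and overlapped (log2 change 0.65, adjusted p = 0.52). The median moved with the libraries and the scaling, from 0.18 without C57BL/6J 3 and 0.20 with quantile normalization to 0.79 without C57BL/6J 2, and was -0.07 with array weights. Among 19 other lens genes 1 fell and none rose, against 0.688% and 0.391% of all genes, while 15 were above 0 and the median was 0.26. The gene that fell, Gluld1 (now Lgsn), which encodes lengsin, a lens protein related to glutamine synthetase, was at 410, 420 and 350 against 1947, 1634 and 1308 RPKM (log2 change -1.92, SE 0.23, adjusted p = 0.013). Each A/J library was more than 3 times below each C57BL/6J library. The call did not hold once A/J 1, A/J 2, C57BL/6J 1 or C57BL/6J 2 was left out (largest adjusted p 0.080). In the aqueous outflow and matrix list (median 0.06) 1 of 31 genes fell, against the same 0.688%: Myoc, myocilin of the trabecular meshwork, was at 11.1, 13.6 and 11.7 against 68.9, 51.1 and 55.9 RPKM (log2 change -2.11, SE 0.19, adjusted p = 0.0038). The call of Myoc was kept in each omission.

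Among enzymes and stress proteins a few genes fell within lists in which few or no other members were called. Gpx3, the secreted glutathione peroxidase, was at 31.8, 29.1 and 27.97 RPKM across A/J against 200, 126 and 291 across C57BL/6J (log2 change -2.58, SE 0.26, adjusted p = 0.0065), and it was the 1 gene called of 58 in the antioxidant list (median 0.12), against 1.08% of all genes called in either direction. Adh7, the retinol-oxidising dehydrogenase of epithelia, fell with Adh6a, at 25.5, 26.4 and 14.9 against 99.1, 61.3 and 90.4 RPKM (log2 change -1.79, adjusted p = 0.039), while their neighbour Adh1 was not called (log2 change -0.48). The call of Adh7 was kept without A/J 3 and lost in the other omissions (up to 0.15). Hspa8, the constitutive Hsc70 chaperone, was at 19.7, 18.3 and 16.1 against 87.1, 75.2 and 84.3 RPKM (log2 change -2.05, adjusted p = 0.0024) and was the 1 gene called of 42 chaperone genes (median 0.14). Atp6v0c, a membrane subunit of the vacuolar proton pump, was listed at 0, 0.25 and 1.43 against 17.1, 31.2 and 44.7 RPKM (log2 change -4.96, adjusted p = 0.0075), a call lost without C57BL/6J 2 (0.057). Ccl27 (now Ccl27a), a chemokine of skin-type epithelia, was at 1.15, 1.53 and 0.88 against 12.3, 7.77 and 9.29 RPKM (log2 change -2.51, adjusted p = 0.0049). Hspa8 and Ccl27 share 41.5% and 57% of their sequence with other genes, and Atp6v0c 11.9%.

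Cytoplasmic ribosomal protein genes gave the largest fitted falls. Of 81 listed, 69 were tested, and 8 fell while none rose, against 0.688% and 0.391% of all genes, with a list median of -0.08. Rpl26 was at 0.95, 0 and 0.36 RPKM across A/J against 195, 119 and 167 in C57BL/6J (adjusted p = 0.00049). Rps3a (now Rps3a1) was at 0.22, 0.2 and 0.38 against 88.2, 58.2 and 72.7 RPKM, and Rpl29 at 0.09, 0.08 and 0.09 against 26.6, 26.4 and 22.7 RPKM (adjusted p = 4.5e-05 for both). Every cell needs these proteins, and their listed values are therefore given without a fold. Rps18, Rpl3, Rpl30 and Rpl35a had the same pattern, with at most 2.43 RPKM in any A/J library and at least 24.9 in any C57BL/6J library. Of the 8, 6 share at least 20% of their sequence with other genes, as do 38 of the 69 tested, and Rpl30 and Rpl35a share 9.35% and 7.61%. The 8 calls were kept in each omission of 1 library. The mitochondrial ribosomal proteins gave none of 74, against 1.08% of all genes called in either direction. Sharing of at least 20% was found for 36 of the 136 called genes with a reference (26.5%) and for 442 of 12575 genes tested (3.51%). With genes sharing sequence left out, 81 genes were called, 27 higher and 54 lower.

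**Figure D5:**
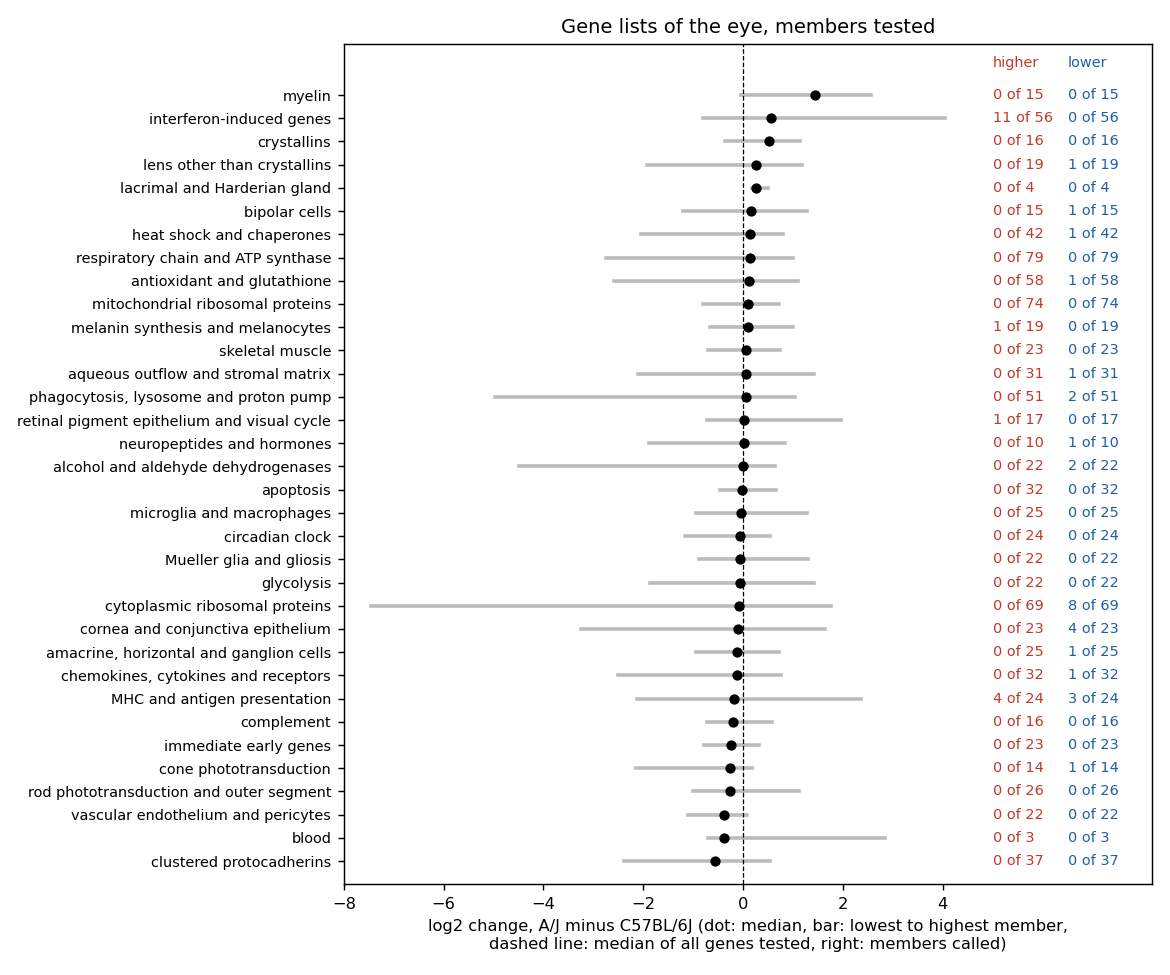
Median (dot) and range (bar) of the log2 change, A/J minus C57BL/6J, of the tested members of each of 34 gene lists, with the numbers called higher (red) and lower (blue) at the right. The dashed line is the median of all genes tested, -0.01. The interferon list has the most members called higher, 11 of 56, and the ribosomal proteins the most called lower, 8 of 69.

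Of the 138 called genes, 45 belonged to at least 1 of the 34 lists. The share of all tested genes in any list was not counted, and the lists were chosen with earlier results known. The 45 are therefore not read as an excess. No member was called in the lists of rods, Mueller glia, crystallins, vascular cells, skeletal muscle, lacrimal gland, blood, myelin, complement, microglia, circadian clock, immediate early genes, apoptosis, glycolysis, mitochondrial ribosomal proteins, respiratory chain and clustered protocadherins. With 1.08% of all genes called, lists of these sizes can hold no call, and its absence is not read as a result about them. In some of these lists the members leaned one way without any call. Of 22 genes of vascular endothelium and pericytes 21 had a log2 change below 0 (median -0.38, from -0.55 to -0.28 in all other fits), and 9 stood lower in A/J without overlap, against 7.77% of all genes. Acta2, a smooth muscle actin that is not confined to vessels, was at 91.3, 95.6 and 85.2 against 148, 136 and 104 RPKM (log2 change -0.38, adjusted p = 0.52). Myelin genes had a median of 1.44 with 13 of 15 above 0, and 2 of 15 stood higher in A/J without overlap, against 8.6% of all genes. The highest myelin library was A/J 1, whose list sum was 1477 RPKM, and the other 5 libraries lay between 447 and 682. Apoe of Mueller glia (log2 change -0.36), Atp5b of the ATP synthase (0.13) and Aldoa of glycolysis (-0.21) were the highest members of lists without a call.

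Some called genes lay next to one another in the genome. Of 137 called genes with a place in the gene order, 40 (29.2%) had another called gene among the 5 tested genes on either side, against 9.28% of the 12357 genes that were not called. The 40 included the keratins Krt13, Krt15 and Krt17 on chromosome 11 and Krt4, Krt7 and Krt75 on chromosome 15, the class II genes H2-Ab1, H2-Aa and H2-Eb1 and the class I groups on chromosome 17, the synthetases Oas1a, Oas2 and Oas3 on chromosome 5, the pair Ifi44 and H28 on chromosome 3, and Adh6a and Adh7 on chromosome 3. Each of these groups moved in 1 direction. Some of their members share sequence with other genes, among them H2-Q2, H2-Q6, H2-Q10, H2-T10 and Oas1a. Such sharing was found for 26.5% of called genes against 3.51% of genes tested, and its part in the neighbouring calls was not tested. On chromosome 2, Itga4 and Cerkl rose while Dnajc10, a folding protein of the endoplasmic reticulum, fell (7.67, 8 and 6.95 against 19.6, 20.1 and 16.7 RPKM, log2 change -1.15, adjusted p = 0.042). The call of Dnajc10 was kept without C57BL/6J 3 and lost in the other omissions (up to 0.24). By chromosome, the share of tested genes called was highest on chromosome 17, at 2.52%.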

How the data were processed

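The series measured poly(A) RNA of whole eyes by sequencing, with 1 table per library of 13089 genes. The deposited values carry no unit in the file headers; they are read as RPKM, whole-gene values with 2 decimals, because, multiplied by gene length, they summed to 109.5% to 127.7% of what RPKM values would give, the highest being C57BL/6J 3. The tools named in the submitters' processing notes are CASAVA 1.7 and GenomeStudio, with build mm9; further settings are not given in these sources. No counts are given, so depth is unknown and no count test was run. Size factors by median of ratios (0.943 to 1.14) scaled the values, and log2(value + 0.5) was fitted with limma 3.58.1 (R 4.3.3; trended, robust prior) on strain alone, in the 6 libraries, two-sided, with Benjamini-Hochberg adjustment over 12791 genes. The fitting script was tested on simulated data. Current symbols and gene order came from RefSeq GRCm38 tables, matched by symbol for 12902 genes. Transcript length, GC content and shared 31-base sequences came from GENCODE transcripts of GRCm38. A gene with at least 20% of its 31-base sequences in another locus is said to share sequence.

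The naming rule took 12 rises and 12 falls, those of greatest size, from called genes that moved by at least 1 (log2), did not overlap between strains, and had at least 2 RPKM in the higher strain, a symbol other than a clone name and under 20% shared sequence. It added, of each gene list up to 6 called members or, with none, the highest. Tyr, Nnt, H2-Ea and Dysf were added as label checks. Some results for single genes are not reported here. Other genes named were chosen after their values were seen, as were partner genes of those. The comparison and the 34 gene lists were chosen with earlier results of these data known. The lists given gene by gene held 848 genes, of which 719 were tested, and the remaining lists were defined by symbol pattern. Replicate numbers are shared between strains, and deviations of same-numbered libraries correlated at 0.56, 0.0048 and 0.48. These values do not settle whether the numbers pair the samples, and the main fit did not pair them. Alternatives were other scalings, added constants, filters, priors and weights, GC correction, a replicate block, all 9 libraries, and omission of libraries or of genes that share sequence.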

Additional observations from a re-analysis of the deposited data

How the results depend on the processing

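The 138 called genes kept their direction in every alternative that tested them, but their number moved. It was 56 (16 higher, 40 lower) among genes with a mean of at least 5 RPKM, 81 (27 higher, 54 lower) with genes sharing sequence left out, and 348 (139 higher, 209 lower; 214 with a log2 change of at least 1) in a fit over all 9 libraries. Leaving out 1 library gave 49 to 157 calls, 18 to 61 higher and 31 to 96 lower, all with a log2 change of at least 1. Leaving out both A/J 1 and A/J 2, an alternative chosen with earlier results of these data known, gave 15 (5 higher, 10 lower). GC correction gave 205 calls, 84 of them higher. Array weights gave 4270 calls (2093 higher, 2177 lower, 578 with a log2 change of at least 1), with weights from 0.267 to 8.17 whose estimation stopped before convergence. The cause of these shifts was not tested. Values as deposited moved the median of all genes to -0.11 and gave 130 calls (40 higher, 90 lower), and quantile normalization, other added constants, no filter and other priors gave 132 to 143.

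Of the called genes named in the text, Alad, Gbp4, H2-Q6, Isg15, Krt7, Mc1r, Muc1, Oas1a and Rtp4 were no longer called with values as deposited, Alad, Dnajc10 and Nefm with quantile normalization, Gabra2, Krt17 and Nefm after GC correction, and Clec3a with an added constant of 1, while H2-DMb1 was called as deposited. Among genes of at least 5 RPKM, Adh7, Alad, Dnajc10, Glo1, Krt7, Nefm and Rtp4 were tested and not called, and with genes sharing sequence left out Adh7, Alad, Clec3a, Dnajc10, Gabra2, Gbp4, Glo1, Krt7, Mc1r, Nefm and Rtp4.

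The shared replicate numbers do not mark a stated pairing. With a replicate block 204 genes were called, 94 higher and 110 lower, and with block and GC correction 191, 83 higher. In deviations from the strain mean, A/J 1 and A/J 3 correlated best with the C57BL/6J library of their number, and A/J 2 with C57BL/6J 1. Deviations within a strain depend on each other, so these correlations are not independent. In the levels themselves A/J 3 correlated best with C57BL/6J 2 (Spearman 0.970, against 0.924 with C57BL/6J 3).

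Changes near 0 of genes that were not called crossed 0. With GC correction, with or without the block, they became 0.044 for Aldoa, -0.22 for B2m, 0.0062 for Col4a5, 0.074 for Crybb2, 0.0041 for H2-D1, 0.14 for H2-DMa, 0.052 for Krt14, 0.14 for Krt5, 0.11 for Nefh, -0.062 for Opn1sw and -0.43 for Tyr. As deposited they were -0.029 for B2m, -0.096 for Opn1sw and -0.092 for Tyr, and with quantile normalization 0.0081 for Col4a5, 0.013 for H2-DMa and -0.0048 for Opn1sw. Without both A/J 1 and A/J 2 they were -0.0031 for Atp5b, -0.43 for B2m, 0.17 for Col4a5, 0.010 for Crybb2, -0.37 for Opn1sw and -0.29 for Tyr, and with array weights 0.089 for Adh1, 0.0062 for Col4a5, 0.073 for H2-DMa, 0.16 for Krt14, 0.0088 for Krt5 and -0.14 for Tyr. Over the omissions of 1 library they ranged from -0.20 to 0.37 for B2m, -0.25 to 0.25 for Col4a5, -0.13 to 0.028 for H2-DMa, -0.44 to 0.018 for Krt14, -0.25 to 0.13 for Opn1mw, -0.13 to 0.21 for Opn1sw and -0.25 to 0.17 for Tyr.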

Other observations

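Some further genes changed that no list of the report holds, and they were chosen after their values were seen. Of genes known from cartilage, 3 that were called lower are given. No list of cartilage genes was drawn up, so they do not describe such genes as a set. Of all genes tested, 0.688% were called lower. Chad, chondroadherin, was at 4.74, 4.85 and 4.98 RPKM across A/J and 48.6, 39.7 and 23.3 in C57BL/6J (log2 change -2.65, adjusted p = 0.012), Comp, the cartilage oligomeric matrix protein, at 2.96, 2.44 and 4.72 RPKM across A/J and 16.3, 14.4 and 11.9 in C57BL/6J (log2 change -1.85, adjusted p = 0.028), and Clec3a, a cartilage lectin, at 0.33, 0.48 and 0.33 RPKM across A/J and 2.97, 2.86 and 1.56 in C57BL/6J (log2 change -1.65, adjusted p = 0.045). None of the 3 calls was kept in every omission of 1 library, with adjusted p up to 0.076, 0.16 and 0.23. The call of Clec3a was also lost with an added constant of 1 (adjusted p = 0.060).

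A further 5 genes called lower are known from epithelia or skin. Like those from cartilage, they do not describe such genes as a set. The cornea and conjunctiva list had a median log2 change of -0.11. The keratin Krt17 was at 1.78, 2.48 and 1.22 RPKM across A/J and 11.9, 8.31 and 23.6 in C57BL/6J (log2 change -2.50, adjusted p = 0.025), and the membrane mucin Muc1 at 1.95, 1.5 and 1.92 RPKM across A/J and 6.87, 5.02 and 11.3 in C57BL/6J (log2 change -1.68, adjusted p = 0.032). St6galnac1, a sialyltransferase of mucins, was at 3.84, 2.81 and 3.47 RPKM across A/J and 20.4, 13.4 and 25.6 in C57BL/6J (log2 change -2.25, adjusted p = 0.0067). Scnn1a, the alpha chain of the epithelial sodium channel, was at 0.43, 0.38 and 0.71 RPKM across A/J and 2.23, 1.8 and 2.86 in C57BL/6J (log2 change -1.40, adjusted p = 0.022). Stfa1, a stefin, was listed at 0 in each A/J library and at 3.29, 2.02 and 3.54 RPKM in C57BL/6J (adjusted p = 0.0014). St6galnac1 and Stfa1 kept their calls in each omission and share 43.3% and 43.8% of their sequence with other genes. Krt17, Muc1 and Scnn1a lost theirs in 5 of the 6 omissions, and Krt17 also after GC correction (adjusted p = 0.075).

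Among genes higher in A/J, Alad, an enzyme of haem synthesis, was at 55.2, 53.1 and 85.02 RPKM across A/J and 26.5, 21.3 and 30.03 in C57BL/6J (log2 change 1.39, adjusted p = 0.039), and its neighbour Hdhd3, a phosphatase-like gene, at 12.6, 13.97 and 16.7 RPKM across A/J and 4.87, 3.4 and 4.93 in C57BL/6J (log2 change 1.72, adjusted p = 0.0071). Glo1, the glyoxalase that clears methylglyoxal, was at 126, 162 and 93.6 RPKM across A/J and 39.7, 41.3 and 26.4 in C57BL/6J (log2 change 1.92, adjusted p = 0.039), and Car4, a membrane-bound carbonic anhydrase, at 3.75, 3.18 and 3.08 RPKM across A/J and 0.45, 0.64 and 0.7 in C57BL/6J (log2 change 1.89, adjusted p = 0.0042). The call of Car4 was kept in each omission, that of Hdhd3 was lost without C57BL/6J 2 (adjusted p = 0.053), and those of Alad and Glo1 were kept without A/J 3 and lost in the other omissions (adjusted p up to 0.20 for both). Both were also lost without both A/J 1 and A/J 2, among genes with a mean of at least 5 RPKM and with genes sharing sequence left out, as was Alad with values as deposited and with quantile normalization. The receptor genes Htr3a (serotonin) and Gabra2 (GABA) were at 11.1, 9.18 and 10.5 RPKM across A/J and 3.52, 4.39 and 4.51 in C57BL/6J and at 4.86, 6.85 and 5.4 RPKM across A/J and 1.82, 2.34 and 1.38 in C57BL/6J (log2 changes 1.32 and 1.5, adjusted p = 0.017 and 0.042). The call of Htr3a was lost once A/J 1, A/J 2, C57BL/6J 1 or C57BL/6J 2 was left out (up to 0.14), and that of Gabra2 in all 6 omissions and after GC correction (adjusted p = 0.081).

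Genes with near copies gave some of the widest gaps. EG433182 (now Eno1b), an enolase copy with 89.2% shared sequence, was at 22.7, 22.9 and 22.01 RPKM across A/J and 0.3, 0.04 and 0.02 in C57BL/6J (log2 change 5.31, adjusted p = 0.00012). Tuba1c, an alpha tubulin with 55.3% shared sequence, rose (29.99, 23.8 and 32.4 RPKM across A/J and 5.99, 6.22 and 9.24 in C57BL/6J, log2 change 2.06, adjusted p = 0.0048), while Hmgn2, a nucleosome-binding protein with 29.8%, and Kpna2, an importin with 66.0%, fell (log2 changes -3.31 and -3.0). All 4 calls were kept in each omission of 1 library, and which copy of a shared gene differs is uncertain.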
